A study of Mus musculus with 6 samples.

Results

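Erythroid and haem synthesis genes were followed across 6 arrays of E12.5 mouse liver, as 33 named members among 20678 genes with a probe set of their own. They comprise the enzymes that make haem, globins and a globin chaperone, erythroid transcription factors, the erythropoietin receptor and iron importers, red cell membrane genes, and a few genes of red cell metabolism and maturation. Members were chosen by gene symbol. The file's symbol equalled the name for 32 of them, and Epb42 was matched through its Entrez identifier. Where a gene had several probe sets, the one averaging highest across the 4 fraction arrays stands for it.

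All samples were wild type C57Bl6 embryos, with 1 Affymetrix Mouse Genome 430 2.0 array per group and no replicates, so no difference below carries a test or a spread between samples. The groups were liver cells, ALCAM+ cells, and 4 fractions of the ALCAM+ cells from a pair of sorts, namely PDPN+ and PDPN- for podoplanin and ITGA8+ and ITGA8- for integrin alpha 8. The series set out to isolate a hepatic stellate cell population by ITGA8. How many embryos or litters fed each sort is not given in the sources used here, and a sorted fraction can still hold other liver cells. Sort markers followed the labels, with Alcam at 13425 in ALCAM+ and 3207 in liver cells, Pdpn at 7746 in PDPN+ and 117 in PDPN-, and Itga8 at 4354 in ITGA8+ and 871 in ITGA8-.

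At this age the liver is the main site of definitive red cell formation, and nucleated primitive red cells from the yolk sac still circulate through it. Erythroid progenitors respond to erythropoietin, switch on globin and haem genes under GATA1, TAL1 and KLF1, and import iron through the transferrin receptor. Haem is made in steps shared between mitochondria and cytosol, beginning with ALAS2 in red cells and ending with FECH, which inserts iron. Primitive cells use embryonic globins, here Hba-x, Hbb-bh1 and Hbb-y.

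Values are deposited array intensities, and differences are of log2(intensity + 16). Intensities of different probe sets do not rank genes by abundance, so levels are compared between arrays for 1 gene at a time. The 4 fraction arrays share a scale, with median probe set intensities from 123 to 200. Liver and ALCAM+ lie on a lower one, with medians of 42 and 66, and are compared with each other. A gene entered a comparison where its higher array exceeded 109.0, which is the median over every deposited probe set value. Of the 33 members 32 did so in the fractions, 25 of them in all 4 fraction arrays. Add2, Ank1, Fn3k and Tspo2 entered through the ITGA8 sort arrays, being at or below 109.0 in PDPN+ and PDPN-.

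The division that these genes followed was between the sorts. In 30 of 32 members both ITGA8 sort arrays lay above both PDPN sort arrays, where 32.2% of all 14508 genes did so. In 22 of 32 the lower ITGA8 sort array was at least 2-fold above the higher PDPN sort array, against 5.25% of all genes. At 4-fold it was 11 of 32, against 1.13%. Of the 32, 0 were 2-fold lower in the same sense, against 2.94% of all genes. In 6 of the 22 at least 1 PDPN sort array was at or below 109.0, where the size of a fold depends on the added 16. Leaving out the 4 members that entered through the ITGA8 sort arrays, 19 of 28 had the 2-fold gap. The share of all genes limited in that way was not computed, and 5.25% is not its match. The median of this gap was 1.50 over the members and -0.32 over all genes, on the log2 scale. Each sort contributes a positive and a negative fraction, so its arrays are not replicates, and the sort cannot be told apart from any batch it was processed in. In bulk RNA, fewer cells of a type and less RNA per cell cannot be told apart.

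**Figure D1:**
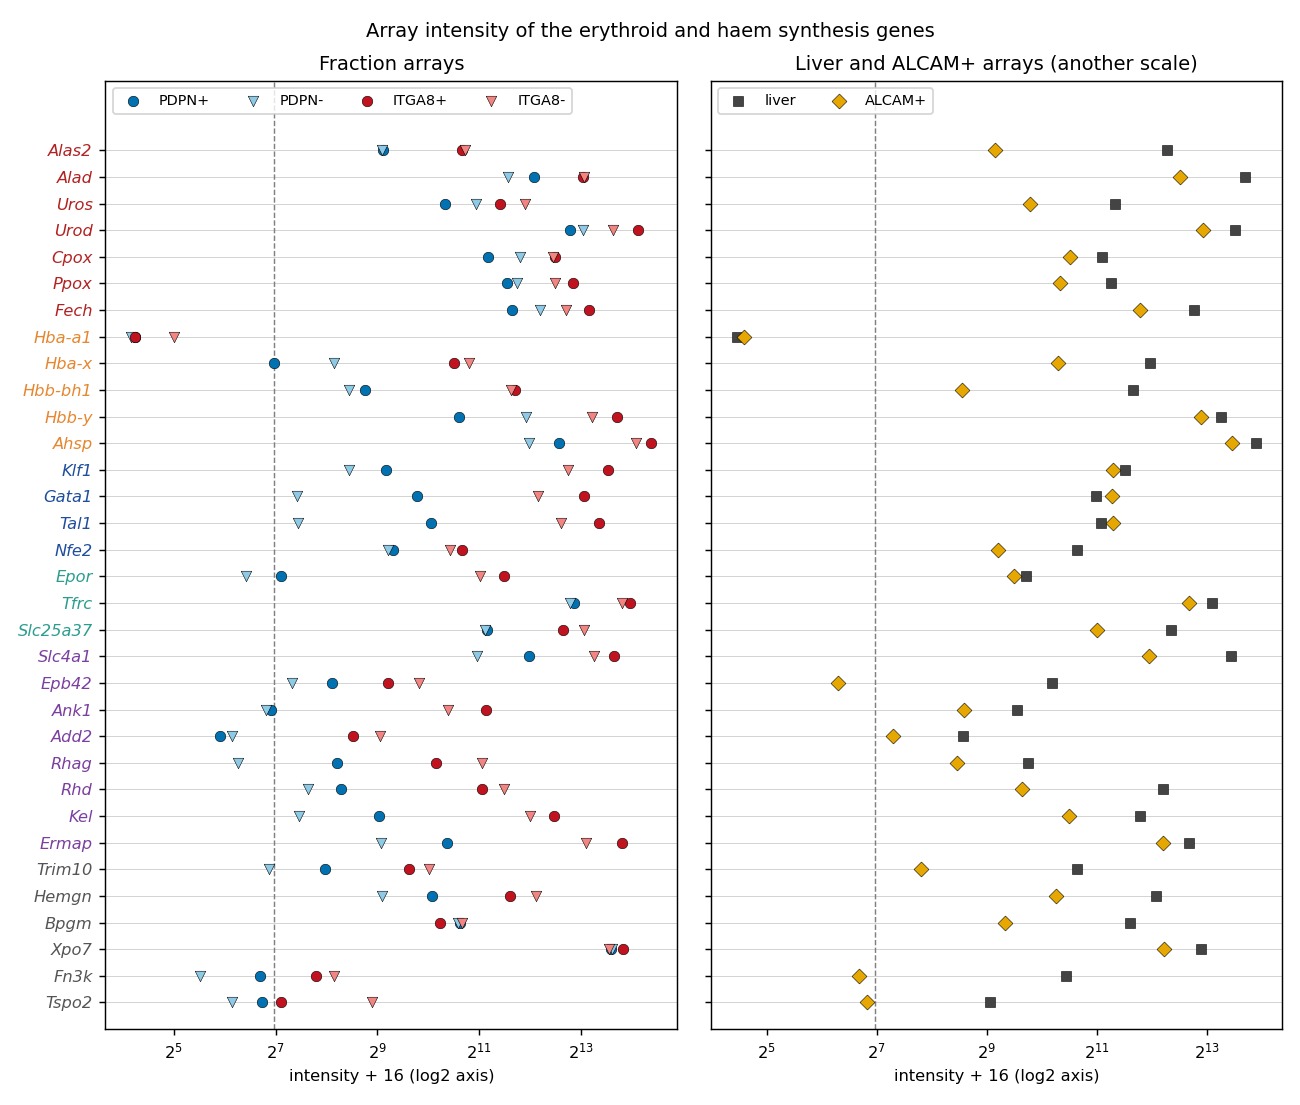
Intensity plus 16 of each member on log2 axes, in the 4 fraction arrays (left) and in liver and ALCAM+ (right, another scale). Points are single arrays, the dashed line marks 109.0 plus 16, and name colours mark the groups of genes. Red symbols (ITGA8 sort) lie right of blue symbols (PDPN sort) in 30 of 32 members, Bpgm and Xpo7 being the others.

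Taken pairwise, 28 of 32 members were 2-fold higher in ITGA8+ than in PDPN+, against 16.3% of all genes, and 0 were 2-fold lower, against 14.2%. At 4-fold 12 were higher, against 4.13%. Likewise 25 of 32 were 2-fold higher in ITGA8- than in PDPN-, against 23.9%, and 0 were 2-fold lower, against 10.9%. The member medians were 1.59 and 2.56, and those of all genes 0.04 and 0.22. Among the members 2-fold higher in ITGA8+, Ank1, Add2 and Fn3k were under 109.0 in PDPN+. Among those 2-fold higher in ITGA8-, Epor, Ank1, Add2, Rhag, Trim10, Fn3k and Tspo2 were under 109.0 in PDPN-. These members entered through their ITGA8 sort array, and the size of their folds depends on the added 16. Where a member 2-fold higher in ITGA8+ than in PDPN+ had further probe sets above 109.0, 19 of 20 went the same way and 14 were also 2-fold. For ITGA8- against PDPN- it was 13 of 13, all of them 2-fold.

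The factor Klf1 and the erythropoietin receptor gave the widest gaps. Klf1, an activator of beta-globin and other red cell genes, was at 559 and 331 in PDPN+ and PDPN-, and at 11851 and 6801 in ITGA8+ and ITGA8-. Its lower ITGA8 sort array was 11.9-fold above its higher PDPN sort array. Epor, the receptor that keeps erythroid progenitors alive, was at 121 and 70 in PDPN+ and PDPN-, and at 2830 and 2064 in ITGA8+ and ITGA8-. That gap was 15.2-fold, the widest of the 32, and the PDPN- value lies under 109.0, so folds against that array depend on the added 16.

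Gata1, which directs red cell and megakaryocyte genes, was at 856 and 155 in PDPN+ and PDPN-, and at 8483 and 4566 in ITGA8+ and ITGA8-. Tal1, its partner in both lineages, was at 1049, 158, 10391 and 6184 in the same order. Gaps were 5.25-fold for Gata1 and 5.82-fold for Tal1, and in both genes PDPN- was the lowest array by a further 5.10-fold and 6.12-fold. Nfe2, a subunit of a factor of globin and platelet genes, was flatter, at 613 and 579 in PDPN+ and PDPN-, and at 1609 and 1364 in ITGA8+ and ITGA8-, a gap of 2.19-fold.

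Embryonic globins were higher in both ITGA8 sort arrays than in both PDPN sort arrays. Hbb-bh1, a beta-like globin of primitive red cells, was at 416 and 334 in PDPN+ and PDPN-, and at 3334 and 3138 in ITGA8+ and ITGA8-, a gap of 7.30-fold. Hba-x, the alpha-like embryonic globin, was at 110 and 268 in PDPN+ and PDPN-, and at 1442 and 1766 in ITGA8+ and ITGA8-, a gap of 5.13-fold. Hbb-y, the other beta-like embryonic globin, was at 1533, 3841, 13290 and 9524 in the same order, a gap of 2.47-fold. Another Hbb-y probe set, at 605, 1542, 2787 and 3612, had a gap of 0.85 on the log2 scale, under 2-fold. Ahsp, which stabilises free alpha-globin, was at 6064 and 3994 in PDPN+ and PDPN-, and at 21198 and 17169 in ITGA8+ and ITGA8-, a gap of 2.83-fold.

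Adult globins could not be read per gene. The probe set that carries Hba-a1 alone was at 2 to 16 in all 6 arrays, while the 3 probe sets shared by Hba-a1 and Hba-a2 reached 27470. The shared alpha probe set with the widest range was at 2677 and 1436 in PDPN+ and PDPN-, and at 11688 and 7005 in ITGA8+ and ITGA8-. The other shared alpha probe sets had gaps of 0.29 and 0.41 on the log2 scale. The probe set shared by adult beta-globins was at 21238 to 26697 in the fractions. Close globin paralogs may share probes, and the values of single globin genes are uncertain.

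Haem synthesis enzymes were also higher in both ITGA8 sort arrays by the probe sets used, in 7 of 7, against 32.2% of all genes, but by less. Alas2, the erythroid enzyme that starts the pathway, was at 537 and 526 in PDPN+ and PDPN-, and at 1597 and 1667 in ITGA8+ and ITGA8-. Its gap of 2.92-fold was the one haem enzyme gap past 2-fold, 1 of 7, against 5.25% of all genes. Alad, which makes porphobilinogen, was at 4273 and 2996 in PDPN+ and PDPN-, and at 8383 and 8479 in ITGA8+ and ITGA8-, a gap of 1.96-fold. The gaps of Uros, Urod, Cpox, Ppox and Fech lay between 1.38-fold (Uros) and 1.68-fold (Ppox). These enzymes serve haem synthesis in every cell, and in PDPN- they were at 1942 (Uros) to 8421 (Urod).

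Among these, Fech depended on its probe set. The set used was at 3159 and 4643 in PDPN+ and PDPN-, and at 9102 and 6614 in ITGA8+ and ITGA8-. Another, whose name marks it as specific to the gene, was at 1463, 1836, 1293 and 2549 in the same order, with ITGA8+ lowest. A further set, at 2565, 5092, 5341 and 6286, had a gap of 0.07 on the log2 scale.

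For iron supply, Slc25a37, the mitochondrial iron importer mitoferrin, was at 2256 and 2199 in PDPN+ and PDPN-, and at 6413 and 8452 in ITGA8+ and ITGA8-, a gap of 2.83-fold. Another Slc25a37 probe set, much dimmer at 108, 4, 114 and 171 in the same order, had a gap of 0.07 on the log2 scale. Tfrc, the transferrin receptor, was at 7384, 7057, 15958 and 14224, a gap of 1.92-fold. Tfrc is used by dividing cells of many kinds, and it stayed well above 109.0 in PDPN-.

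Membrane and skeleton genes were 2-fold apart in 8 of 8, where 5.25% of all genes were, but Ank1 and Add2 are among those that entered through the ITGA8 sort arrays. Their PDPN sort values are at or below 109.0, so the size of their folds depends on the added 16. Ank1, the ankyrin that ties the membrane to spectrin, was at 105 and 97 in PDPN+ and PDPN-, and at 2228 and 1330 in ITGA8+ and ITGA8-, a gap of 11.1-fold. Kel, the Kell blood group protease, was at 506, 161, 5655 and 4059, a gap of 7.81-fold. Rhd, of the Rh antigen, was at 295 and 184 in PDPN+ and PDPN-, and at 2120 and 2835 in ITGA8+ and ITGA8-, a gap of 6.87-fold.

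Ermap, an erythroblast membrane protein of the immunoglobulin superfamily, was at 1297 and 523 in PDPN+ and PDPN-, and at 14162 and 8693 in ITGA8+ and ITGA8-, a gap of 6.63-fold. Rhag, the Rh-associated glycoprotein, was at 280, 61, 1123 and 2096, a gap of 3.85-fold. Slc4a1, the anion exchanger of the red cell, was at 4014 and 1957 in PDPN+ and PDPN-, and at 12799 and 9676 in ITGA8+ and ITGA8-, a gap of 2.40-fold. Add2, beta-adducin, had a gap of 5.18-fold, and Epb42, which links the anion exchanger to ankyrin, 2.16-fold. In all of these, every ITGA8 sort value lay above every PDPN sort value.

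The remaining 6 genes were mixed. Trim10, a RING finger gene of terminal erythroid differentiation, was at 236 and 101 in PDPN+ and PDPN-, and at 769 and 1018 in ITGA8+ and ITGA8-. Hemgn, the nuclear protein hemogen, was at 1061, 526, 3106 and 4428, and Fn3k, which removes sugars bound to proteins, at 88, 30, 206 and 267. Their gaps were 3.12-fold, 2.90-fold and 2.13-fold. Tspo2, a cholesterol-binding protein of erythroblasts, was at 90 and 55 in PDPN+ and PDPN-, and at 121 and 462 in ITGA8+ and ITGA8-, so its high level was in ITGA8- alone.

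Bpgm and Xpo7 did not follow the sorts. Bpgm, which makes the phosphate ester that lowers haemoglobin's oxygen affinity, was at 1568 and 1526 in PDPN+ and PDPN-, and at 1181 and 1603 in ITGA8+ and ITGA8-. Xpo7, a nuclear exporter with a role in red cell nuclear condensation, was at 12346, 12440, 14423 and 11995. The values of both genes overlapped between the sorts.

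Promoters of members with wide gaps are shown because they share a short motif. RefSeq windows of 250 bases before the start (GRCm38.p6) were at hand for 24 members. They were searched on both strands for AGATAA and TGATAA, the letters GATA factors are known to bind, for CCNCNCCC, a CACCC-box type bound by KLF factors, and for CANNTG, the E-box of factors such as TAL1. The 5 widest gaps with a window, and 1 haem enzyme and 1 globin, are printed 5′ to 3′ with AGATAA or TGATAA in capitals, or TTATCT or TTATCA where the match is on the other strand.
Epor, chr9:21963577-21963826, minus strand: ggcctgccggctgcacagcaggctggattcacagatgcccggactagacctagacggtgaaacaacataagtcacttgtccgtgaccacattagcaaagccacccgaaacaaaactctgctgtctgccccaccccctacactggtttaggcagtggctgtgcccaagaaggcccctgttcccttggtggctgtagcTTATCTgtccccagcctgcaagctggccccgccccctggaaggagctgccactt
Klf1, chr8:84901732-84901981, plus strand: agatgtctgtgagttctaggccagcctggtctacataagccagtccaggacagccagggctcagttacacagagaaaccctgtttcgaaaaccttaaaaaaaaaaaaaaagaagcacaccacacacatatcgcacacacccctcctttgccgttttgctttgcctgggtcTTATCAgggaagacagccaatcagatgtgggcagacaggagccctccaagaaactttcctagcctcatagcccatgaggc
Kel, chr6:41704326-41704575, minus strand: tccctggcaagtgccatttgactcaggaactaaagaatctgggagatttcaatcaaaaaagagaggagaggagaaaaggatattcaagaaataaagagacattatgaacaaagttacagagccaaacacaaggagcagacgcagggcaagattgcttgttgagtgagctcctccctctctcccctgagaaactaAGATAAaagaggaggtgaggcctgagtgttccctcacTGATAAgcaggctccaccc
Rhd, chr4:134864286-134864535, plus strand: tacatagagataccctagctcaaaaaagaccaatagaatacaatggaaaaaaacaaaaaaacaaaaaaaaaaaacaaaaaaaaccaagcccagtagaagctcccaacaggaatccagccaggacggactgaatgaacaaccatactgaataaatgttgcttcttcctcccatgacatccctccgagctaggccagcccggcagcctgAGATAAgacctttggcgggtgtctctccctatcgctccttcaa
Ermap, chr4:119189996-119190245, minus strand: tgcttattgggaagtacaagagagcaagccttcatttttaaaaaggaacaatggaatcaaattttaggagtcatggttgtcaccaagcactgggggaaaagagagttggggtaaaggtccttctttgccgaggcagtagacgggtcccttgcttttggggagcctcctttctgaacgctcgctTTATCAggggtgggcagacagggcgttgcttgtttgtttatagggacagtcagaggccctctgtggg
Alas2, chrX:150547167-150547416, plus strand: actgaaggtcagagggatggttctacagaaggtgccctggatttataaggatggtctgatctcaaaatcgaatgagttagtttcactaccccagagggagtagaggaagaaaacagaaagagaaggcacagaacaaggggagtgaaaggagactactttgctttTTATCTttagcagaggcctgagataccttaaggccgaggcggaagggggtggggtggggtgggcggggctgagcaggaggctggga
Hba-x, chr11:32276350-32276599, plus strand: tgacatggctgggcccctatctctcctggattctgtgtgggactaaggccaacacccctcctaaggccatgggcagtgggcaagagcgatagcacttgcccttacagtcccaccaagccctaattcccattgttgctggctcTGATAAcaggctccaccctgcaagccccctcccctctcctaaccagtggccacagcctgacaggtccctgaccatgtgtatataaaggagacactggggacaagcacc

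AGATAA or TGATAA stood in windows of 16 of 24 members (66.7%), against 18.8% of 27025 genes with windows. Among members with a gap of 2-fold or more it was 13 of 15, and among those with a smaller gap 2 of 8. Matches began 54 bases upstream of the start in Epor, 80 in Klf1, 43 in Rhd, 67 in Ermap, 86 in Alas2 and 108 in Hba-x. Kel had a match at 56 and another at 19 bases. CCNCNCCC was in 12 of 24 members (50%) against 48.5% of genes, and CANNTG in 15 of 24 (62.5%) against 69.3%, both near the share of all genes. Gata1, with a gap of 5.25-fold, and Add2 had neither GATA form in the window. A match is a description of letters, not of binding.

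Within the PDPN sort the members differed in both directions. Between PDPN+ and PDPN-, 7 of 28 members were 2-fold higher in PDPN+, against 19.9% of all genes, and 2 were 2-fold lower, against 7.93%. These shares are near those of all genes. At 4-fold 2 were higher, against 9.11%, and 0 lower, against 0.811%. The 7 were Tal1, Gata1, Rhag, Kel, Ermap, Trim10 and Slc4a1, from 6.12-fold in Tal1 to 2.04-fold in Slc4a1. The 2 were the embryonic globins Hbb-y, 2.49-fold, and Hba-x, 2.25-fold. The other probe sets of Hbb-y were also lower in PDPN+, at 1523 against 3653 and at 605 against 1542. Hbb-bh1 did not share this, at 416 and 334. Haem enzymes lay within 2-fold in 7 of 7, and 5 of them were on the PDPN- side.

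**Figure D2:**
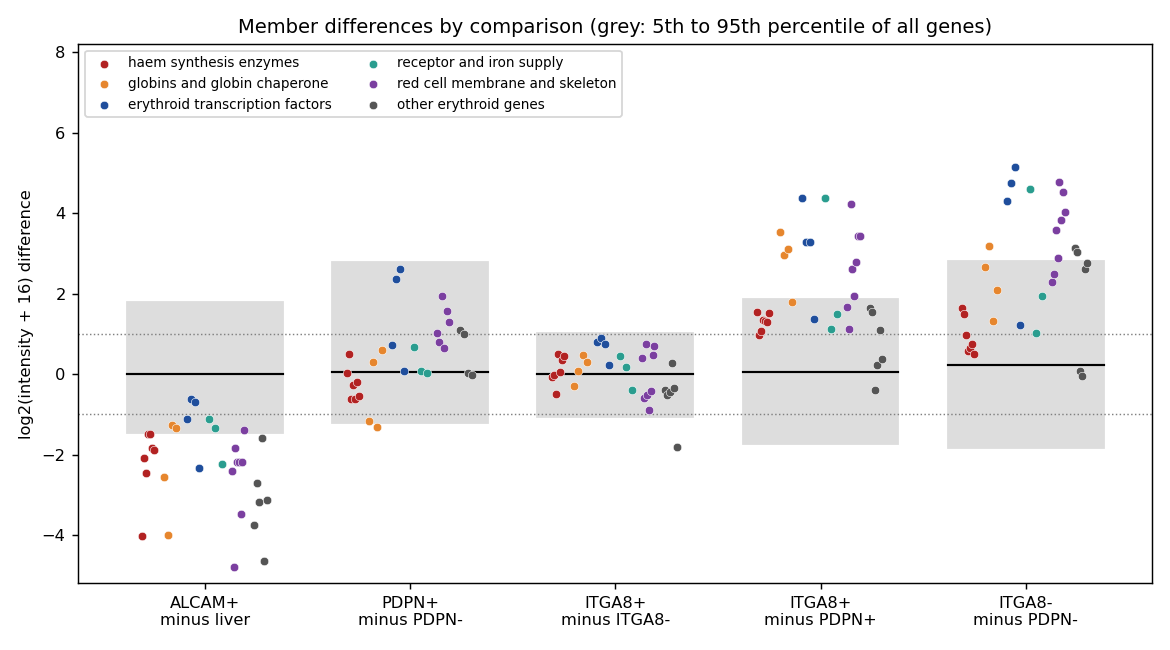
Difference in log2(intensity + 16) of each member (dots, coloured by group of genes) in 5 comparisons of single arrays. Grey bars span the 5th to the 95th percentile of all genes, black lines are their medians and dotted lines mark 2-fold; ALCAM+ minus liver is relative to the median of all genes. Members lie mostly below the 2-fold line in the comparison with liver and above it in both comparisons between sorts.

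Between ITGA8+ and ITGA8-, 0 of 32 members were 2-fold higher in ITGA8+, against 5.38% of all genes, and 1 was 2-fold lower, against 6%. That member was Tspo2, 3.49-fold lower in ITGA8+, and at 4-fold 0 were lower, against 0.469%. The member median was 0.13. Nearest to 2-fold on the high side were Gata1 at 0.89, Klf1 at 0.80, Tal1 at 0.75 and Ank1 at 0.74, and on the low side Rhag at -0.89 and Epb42 at -0.60. Gata1, Klf1, Tal1 and Rhag have 1 probe set each, so their directions have no second reading. Of 25 other member probe sets above 109.0, 8 went the way of the set used. For Ank1 another set was at 277 in ITGA8+ and 857 in ITGA8-, against 2228 and 1330 for the set used. Bpgm, within 2-fold by the set used, was at 268 and 854 by another.

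**Figure D3:**
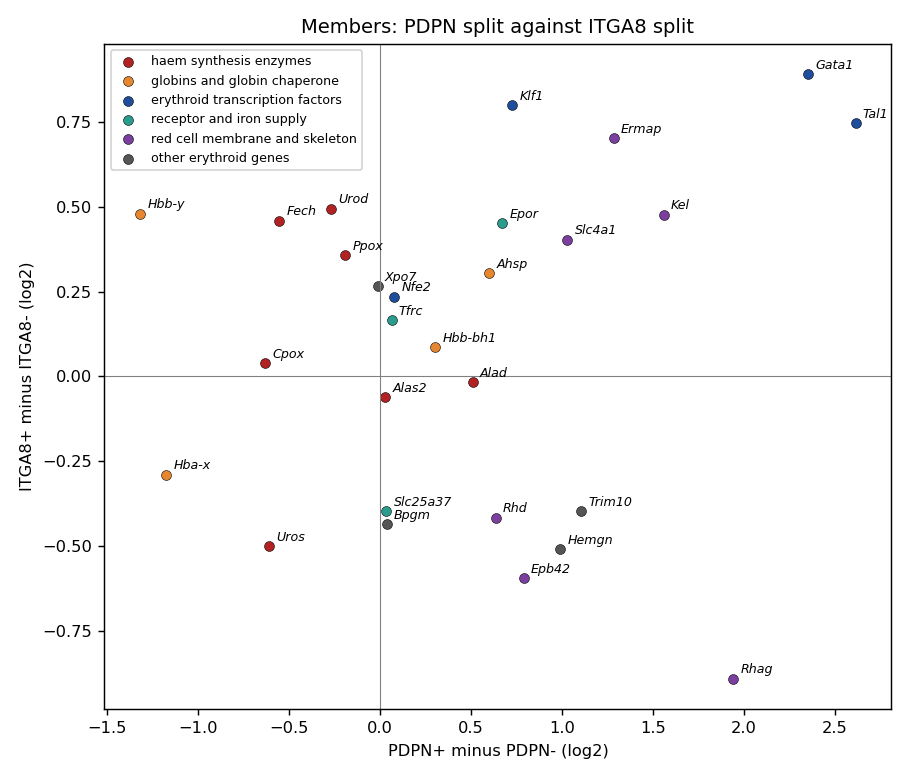
Each member's difference between PDPN+ and PDPN- (x) and between ITGA8+ and ITGA8- (y), both in log2(intensity + 16), for the 28 members above 109.0 in both splits. Gata1 and Tal1 lie at the upper right, Rhag at the lower right, and Hbb-y and Hba-x furthest left.

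Liver cells were set against ALCAM+ cells to compare the erythroid genes without and with the ALCAM sort. Each is 1 array, so the sort cannot be told apart from any batch between them. The median of all genes was 0.90 higher in ALCAM+ on the log2 scale, and differences are given relative to it. On that footing 30 of 32 members were 2-fold lower in ALCAM+, against 11.2% of all genes, and 0 were 2-fold higher, against 15.4%. At 4-fold 18 of 32 were lower, against 2.24%. The member median was -2.19. As deposited, without that step, 18 of 32 were 2-fold lower, against 2.55% of all genes, and the median was -1.28. Relative to all genes, housekeeping genes, which include Tfrc, also had a median below 0, at -0.55, with 1 of 14 2-fold lower. Proliferation genes had a median of -0.83, with 7 of 20 2-fold lower. As deposited both of these counts were 0. Other probe sets of the called members were 2-fold lower in 24 of 24.

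The members spread widely in this comparison, and transcription factors stood at its upper end. Gata1 was at 2014 in liver and 2464 in ALCAM+, and Tal1 at 2121 and 2468. Relative to the median of all genes these were -0.61 and -0.68, the 2 members within 2-fold. Klf1 was at 2899 and 2494 and Epor at 822 and 707, at -1.12 and -1.11. Nfe2 lay apart from the other factors, at 1581 and 572, or -2.34.

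The lowest members came from several of the gene groups. Epb42 was at 1146 in liver and 63 in ALCAM+, or -4.78, and Fn3k at 1373 and 87, or -4.66. In both the ALCAM+ value is under 109.0. Alas2 was at 4892 and 550, or -4.02, and Hbb-bh1 at 3201 and 359, or -4.00. Trim10, at 1572 and 206, was at -3.74, and Rhd, at 4701 and 778, at -3.47.

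Genes of the same pathway had unlike values. The haem enzymes other than Alas2 ranged from -2.45 in Uros to -1.48 in Urod, with Alas2 below them at -4.02. Among embryonic globins Hbb-y was at 9745 in liver and 7560 in ALCAM+, or -1.27, while Hbb-bh1 was at -4.00 and Hba-x at -2.56. Another Hbb-y probe set gave 10446 and 3628. Tfrc was at 8710 and 6467, or -1.33. Its control probe sets, present for these arrays, were at 2391 and 1202 at the 3′ end, 739 and 203 in the middle and 331 and 44 at the 5′ end. The ALCAM+ value was 0.506 of the liver value at the 3′ end and 0.173 at the 5′ end, on intensities plus 16. The 5′ value of 44 lies under 109.0, so that last ratio depends on the added 16. The part of this gradient in the members' differences was not tested.

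**Figure D4:**
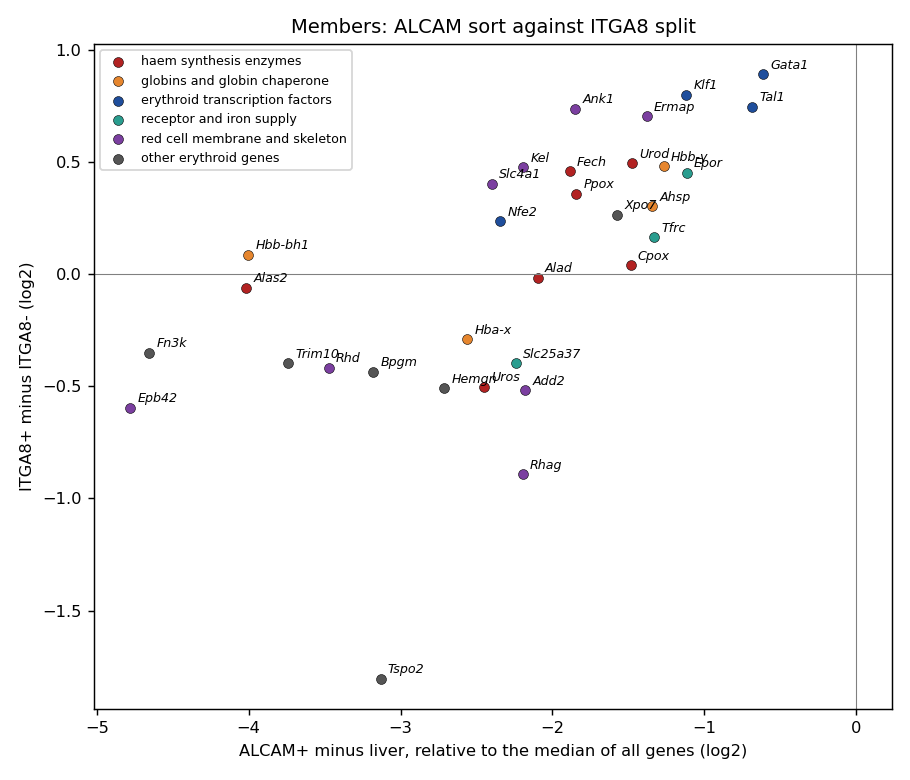
Each member's difference between ALCAM+ and liver relative to the median of all genes (x) and between ITGA8+ and ITGA8- (y), both in log2(intensity + 16), for 32 members. Gata1, Tal1, Klf1 and Epor lie at the upper right, and Epb42, Fn3k and Tspo2 at the lower left.

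Over the 32 members, the order in ALCAM+ against liver resembled the order in ITGA8+ against ITGA8-, with a Spearman rho of 0.74. Over all 10874 genes with both values rho was 0.29. The comparisons share no array but share probe sets, and members are not independent points. With the mean of all probe sets rho was 0.61, and with specific probe sets alone 0.79 over 27 members. Against PDPN+ minus PDPN- the members gave a rho of 0.09 over 28.

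Other genes of the pathway, from lists that hold no member, followed the sorts in part. Of 22 further red cell membrane genes 6 had both ITGA8 sort arrays 2-fold above both PDPN sort arrays, against 5.25% of all genes. Kcnn4, a calcium-gated potassium channel of the red cell, was at 328 and 144 in PDPN+ and PDPN-, and at 8723 and 5051 in ITGA8+ and ITGA8-. Icam4, an adhesion molecule of erythroblasts, had a gap of 10.4-fold, and Dmtn, the actin-bundling protein dematin, one of 5.05-fold.

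Of 25 further erythroid regulators 8 were 2-fold apart in the same sense, against 5.25% of all genes. They were led by Myb, at 1073 and 240 in PDPN+ and PDPN-, and at 10987 and 10636 in ITGA8+ and ITGA8-. Myb maintains blood progenitors. Next came Lyl1 with a gap of 2.99 on the log2 scale, Ikzf1 with 2.60, Lmo2 with 2.24, Bcl11a with 2.21 and Zfpm1 with 1.88, all transcription regulators of blood cells.

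Of 23 further late erythroid genes 6 were past 2-fold, against 5.25% of all genes. Ctse, cathepsin E, was at 21 and 46 in PDPN+ and PDPN-, and at 2883 and 5518 in ITGA8+ and ITGA8-, and Cldn13, a claudin, at 162, 116, 1971 and 2392. With both PDPN sort values under 109.0, Ctse entered through the ITGA8 sort arrays. Slc38a5, Treml2, Car2 and Spire1 had gaps of 3.13 to 1.53 on the log2 scale. Haem and iron genes outside the members were past 2-fold in 1 of 24, near the share of all genes. It was the iron reductase Steap3, at 86 and 160 in PDPN+ and PDPN-, and at 353 and 460 in ITGA8+ and ITGA8-. The median gap of that list was -0.33, that of all genes -0.32. List genes without a probe set of their own were Ftl1, Trf, Hba-a2, Hbb-b1, Hbb-bs, Hbb-bt, Hbb-bh2, Hbq1a, Hbq1b, Epo, Bnip3l and Trim58. Hbb-b2, the one further globin with its own probe set, was at 40 and 80 in PDPN+ and PDPN-, and at 446 and 282 in ITGA8+ and ITGA8-. Its PDPN sort values also lie under 109.0.

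In ALCAM+ against liver 16 of 21 further membrane genes, 17 of 23 late genes, 10 of 25 regulators and 8 of 24 haem and iron genes were 2-fold lower relative to the median of all genes, against 11.2% of all genes. As deposited these counts were 8, 7, 4 and 4, against 2.55% of all genes. Tmcc2 at -3.49, E2f2 at -3.72, Sox6 at -2.21, Ypel4 at -3.25, Tent5c at -3.12, Blvrb at -2.85 and Slc11a2 at -2.20 were among the lowest of their lists. Highest were Bcam at 1.02, Slc14a1 at 0.24, Runx1 at 0.40, Zfpm1 at 0.30, G6pdx at 0.29, Treml2 at 0.17, Aco1 at 1.98 and Alas1, the haem enzyme of other tissues, at 0.79.

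Markers of other blood cells were set beside the members by the same count, for which the share of all genes was 5.25%. Megakaryocyte markers had the 2-fold gap between sorts in 0 of 12, which is near that share. By pairs of arrays 12 of 12 were 2-fold higher in PDPN+ than in PDPN-, against 19.9% of all genes. In ITGA8- over PDPN- it was 11 of 11, against 23.9%, and in ITGA8+ over PDPN+ 5 of 12, against 16.3%. In PDPN- 1 of 12 was above 109.0, so the counts against that array rest mostly on markers that entered through the other array. Their summed intensity was 40273 and 577 in PDPN+ and PDPN- and 48357 and 21224 in ITGA8+ and ITGA8-. Megakaryocytes also use Gata1, Tal1 and Nfe2, and the part of these cells in those values was not tested. Macrophage markers were above in 0 of 17, with sums of 55934, 17016, 11374 and 8572. Vcam1 at 12695 and Maea at 3422 made up most of the PDPN- sum, and the other 16 markers summed to 45693 and 899 in PDPN+ and PDPN- and 4604 and 2569 in ITGA8+ and ITGA8-. C1qc was at 2338 and 1 in PDPN+ and PDPN-, and at 5 and 16 in ITGA8+ and ITGA8-. Neutrophil and eosinophil markers were above in 0 of 12, with sums of 33230, 917, 3298 and 2152. Mpo alone was 2532 of the sum in ITGA8+ and 1618 of that in ITGA8-, and Mpo and Prg2 were at 1 in PDPN-.

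Progenitor markers, of which Kit, Myb, Gata2, Runx1, Lmo2 and Lyl1 are also in the regulator list, were above in 4 of 14, at 10123 and 3388 in PDPN+ and PDPN-, and at 27451 and 23970 in ITGA8+ and ITGA8-. Their sum, like that of the members, was higher in both ITGA8 sort arrays, but Myb alone was 10987 of it in ITGA8+ and 10636 in ITGA8-. Their median gap was 0.08 on the log2 scale, against -0.32 over all genes. Between ITGA8+ and PDPN+, 6 of 14 were 2-fold higher in ITGA8+, against 16.3% of all genes, and 4 were 2-fold lower, against 14.2%. The part of progenitors in the result was not tested. Proliferation genes were above in 0 of 20, with sums from 133398 to 163060, and housekeeping genes in 0 of 14, with sums from 183517 to 215825. Hepatoblast, mesothelial and endothelial markers were above in 0 of 16, 0 of 13 and 4 of 13, stellate markers in 1 of 14, and mast cell and basophil markers in 0 of 3. The members' own summed intensity was 64657 and 62327 in PDPN+ and PDPN- and 208191 and 169566 in ITGA8+ and ITGA8-.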

How the data were processed

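RNA from 6 samples of E12.5 liver cells was amplified from 20 ng and hybridised to 1 array each, per the labels' protocols. The authors deposited 1 table of linear intensity values, all whole numbers. RMA and Partek are named, without versions, per the submitters' processing notes. The values were not brought to 1 distribution: the fraction arrays share a trimmed mean (2% at each end) of 996 to 997, and liver and ALCAM+ have 196 and 331. Of 45101 probe sets, 38011 name 1 gene; symbols came through Entrez identifiers from RefSeq (GRCm38.p6), matched for 92.1%. Values were transformed to log2(intensity + 16). With 1 array per group, counts at 2-fold stand in for tests, and arrays limit precision by their number. Members and lists were chosen with earlier results of these data known. All members are named; of the pathway lists, up to 6 genes each past 2-fold between sorts, and the 2 lowest and 2 highest in ALCAM+ against liver. Other genes were chosen after their values were seen, and a few that the rule names are not reported here. Counting was tested on simulated data. Python 3.11.15, pandas 2.3.3 and scipy 1.17.1 were used.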

Additional observations from a re-analysis of the deposited data

How the results depend on the processing

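Counts of members kept within 1.5 times under a pseudocount of 1, no floor, a doubled floor, probe sets chosen over all 6 arrays, quantile normalisation and centring on the median; the exceptions follow. At 4-fold, 18 members were lower in ALCAM+ than in liver, 2 higher and 0 lower in PDPN+ than in PDPN-, 0 lower in ITGA8+ than in ITGA8-, 12 higher in ITGA8+ than in PDPN+, and 11 had both ITGA8 sort arrays above both PDPN sort arrays. As deposited, 18 were lower in ALCAM+ than in liver. Members lower in PDPN+ than in PDPN- numbered 1 with a pseudocount of 64 and 1 with specific probe sets, and those lower in ITGA8+ than in ITGA8- numbered 2 with specific probe sets and 2 with the mean of all probe sets. Fech in ITGA8+ minus PDPN+ turned to -0.18 with specific probe sets. Leaving out the PDPN-, PDPN+, ITGA8+ or ITGA8- array, chosen after seeing the data, gave 25, 24, 23 and 25 members in place of 22 with a 2-fold gap between sorts. Leaving out an array can only keep or widen a gap, so this count could not fall and is no check on the result. No paired analysis was possible because each group has 1 array.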

Other observations

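Iron, haem and other red cell genes outside the members, chosen after their values were seen, followed other lines. Hmox1, which breaks down haem, was at 4132 and 510 in PDPN+ and PDPN-, and at 420 and 500 in ITGA8+ and ITGA8-. Macrophage markers were also highest in PDPN+, with Cd5l at 2327 there and 2 to 13 in the other fractions, and their part in the Hmox1 values was not tested. Tfr2, an iron sensor of hepatocytes and erythroid cells, was at 1673 and 3674 in PDPN+ and PDPN-, and at 5294 and 2409 in ITGA8+ and ITGA8-, so it differed within both sorts and had no gap between them. Slc14a1, the urea transporter of the red cell, was at 2751, 37, 5327 and 4785, with PDPN- alone low. Sox6, a repressor of embryonic globin genes, was at 1486 and 77 in PDPN+ and PDPN-, and at 625 and 1676 in ITGA8+ and ITGA8-.

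Within arrays, the median percentile of the 33 members among all genes was 98.0 in liver and 86.2 in ALCAM+, then 60.9 and 57.7 in PDPN+ and PDPN- and 83.6 and 87.2 in ITGA8+ and ITGA8-. On this scale, which does not depend on the units of an array, Klf1 was at 97.7 in liver and 94.0 in ALCAM+, then 54.9 and 52.9 in PDPN+ and PDPN- and 97.6 and 93.9 in ITGA8+ and ITGA8-. Epor was at 88.8, 78.2, 38.1, 38.2, 80.8 and 75.3 in the same order. The ALCAM+ array thus stood near the ITGA8 sort arrays for these 2 genes, and above both PDPN sort arrays. Epb42, at 92.1, 41.1, 45.6, 44.9, 55.6 and 60.9, stood lowest in ALCAM+.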
